A study of Mus musculus with 6 samples.

Results

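The genes that differ between 48 h and 72 h of activation were described in regulatory T cells (Tregs) labelled Noc4l-sufficient (Het). Tregs are the CD4 T cells that express the transcription factor Foxp3 and restrain other lymphocytes. Per the labels, the mice carried a Cre recombinase driven by Foxp3 and 1 floxed Noc4l allele (Foxp3CreNoc4l+/fl), so Cre acts in Foxp3-expressing cells and the Het cells are not wild type. CD4+GFP+CD62Lhigh cells of lymph node and spleen were sorted to a purity that the labels give as above 90%, were activated with Dynabeads for 48 h or 72 h, and were sequenced with a low-input SMART-Seq v4 kit. Cells with 2 floxed alleles (Foxp3CreNoc4lfl/fl, cKO) were treated in the same way, and 3 of the 6 libraries carry each genotype label. The sources used here give no ages or sexes, nor say which libraries share animals or were pooled.

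The comparison used the 48 h and 72 h libraries of Het replicate 1. Of 47069 genes with an Ensembl ID, the 9140 with a mean of at least 5 FPKM (fragments per kilobase of transcript and per unit of library size) in these 2 libraries were kept. Each gene's difference was log2(FPKM + 1) at 72 h minus that at 48 h, so a difference of 1 is a doubling, and the added 1 FPKM understates the differences of genes with low levels. The other Het library, replicate 3 at 72 h, was used to see whether the 72 h level recurred. It was set against the same 48 h library, so the differences of replicates 1 and 3 share their baseline. With 1 library at 48 h there is no replicate spread and no test, and every difference below is a value. Just inside the limit lay Snx30 (mean 5.02 FPKM, with 4.94 at 48 h and 5.10 at 72 h), and just outside it lay Hbegf (2.61 and 7.39 FPKM).

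Activated T cells first transcribe immediate early genes such as the Fos, Egr and Nr4a families, which answer the antigen receptor within hours and fade when its signal ends. They then grow, which needs many new ribosomes, and they divide under the influence of interleukin 2, a cytokine that Tregs take up through a high-affinity receptor. As they grow, T cells raise glycolysis, partly through the factors that also answer low oxygen. Later the cells regain receptors that guide them to lymphoid organs or to inflamed tissue.

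From 48 h to 72 h, Het replicate 1 had lower levels of immediate early genes, ribosome assembly factors, heat shock proteins and genes of amino acid and nucleotide supply. It had higher levels of hypoxia-response genes, of several interleukin 2 targets, and of some genes of the naive state and of lymphoid homing. Among the gene lists with at least 5 genes analysed, cell markers aside, the hypoxia-response genes had the highest median difference (0.99 over 30 genes). The mitochondrially encoded genes (-0.93 over 10) and the early response genes (-0.84 over 39) had the lowest. Over all 9140 genes the median was -0.04, with 4192 genes higher and 4948 lower.

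At least 2-fold higher were 349 genes (3.82% of those analysed), 76 of them at least 4-fold. At least 2-fold lower were 211 genes (2.31%), 23 of them at least 4-fold. When Het replicate 3 was set against the same 48 h library, 538 genes (5.89%) stood 2-fold or more above it and 448 (4.90%) 2-fold or more below it. Both 72 h libraries stood at least 2-fold above the 48 h library for 274 genes (3%) and at least 2-fold below it for 159 (1.74%). These are 78.5% and 75.4% of the genes counted in replicate 1. On the same side of the 48 h level, whatever the size, were 341 of the 349 higher and 206 of the 211 lower genes. The 72 h libraries differed from each other by a median of 0.21 in absolute value, against 0.26 between 48 h and 72 h in replicate 1. A difference of the median size was therefore hardly larger than the gap between the 72 h libraries, which lay under 0.58 for 90% of genes. Of the 9140 genes, 64 were at least 2-fold higher in Het 3 than in Het 1 at 72 h, and 166 at least 2-fold lower.

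**Figure D1:**
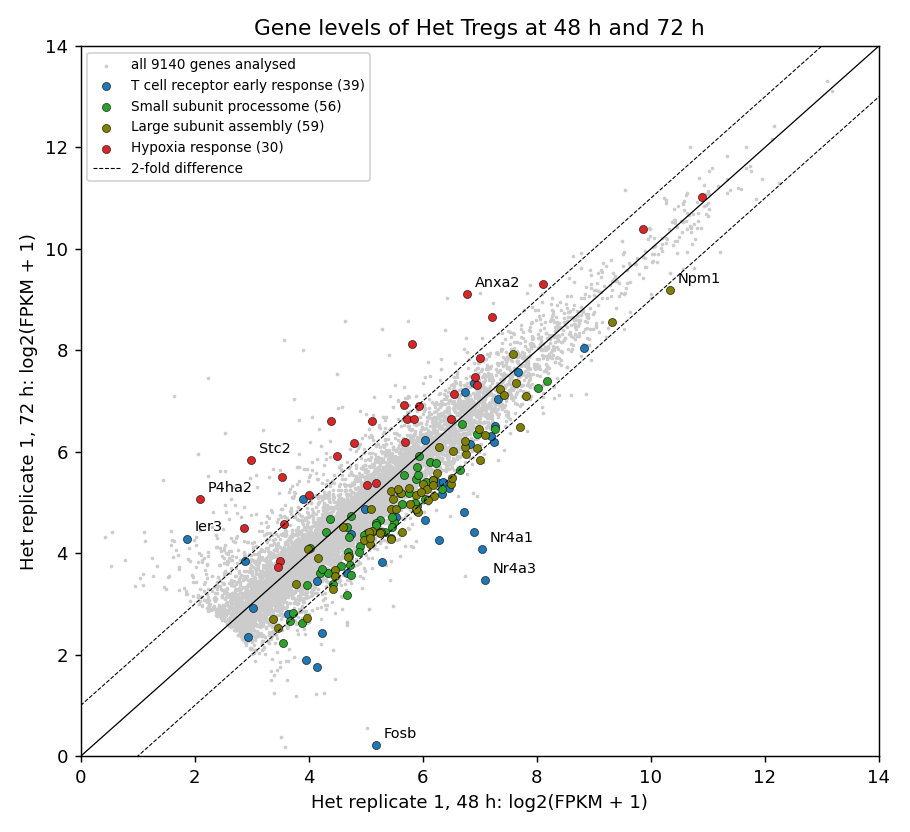
Level of each of the 9140 genes in Het replicate 1 at 48 h (horizontal) and at 72 h (vertical), both as log2(FPKM + 1), with 4 gene lists in colour and dashed lines at a 2-fold difference. Early response genes such as Nr4a3 and ribosome assembly genes such as Npm1 lie below the diagonal, and all 30 hypoxia-response genes lie above it.

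Noc4l (ENSMUSG00000033294), the targeted gene, is named for a yeast protein needed to build small ribosomal subunits. It stood at 99.1 FPKM at 48 h, at 48.8 in Het 1 at 72 h and at 40.8 in Het 3 at 72 h. Both 72 h levels were about equal and below the 48 h level, with differences of -1.01 and -1.26. The counting interval of the plain log2 ratio of replicate 1 ran from -1.13 to -0.91 (95%, counting error only). The libraries labelled cKO held 124 FPKM at 48 h and 81.7 and 58.1 at 72 h, above the Het libraries at each time. The gene-level values thus show no loss of Noc4l in the libraries labelled cKO. With 1 value per gene in the tables, loss of floxed exons was not measured.

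The defining genes of T cells and Tregs were present in each Het library, and none of 9 was at 0. Their summed level was 3849 FPKM at 48 h, 4360 in Het 1 at 72 h and 4737 in Het 3. Foxp3 stood at 207 FPKM at 48 h, 147 in Het 1 at 72 h and 278 in Het 3, so the 72 h libraries lay on either side of the 48 h level (differences -0.49 and 0.42). Ikzf2 (Helios), a transcription factor of Tregs, did the same with 228, 162 and 248 FPKM. Il2ra, the alpha chain of the interleukin 2 receptor, was among the most abundant of these at 1372, 1451 and 1554 FPKM (0.08 and 0.18). The inhibitory receptor Ctla4 was lower in both 72 h libraries, with 522, 353 and 408 FPKM (-0.56 and -0.35). Tnfrsf18 (GITR), a costimulatory receptor, was 214, 248 and 147 FPKM, again on either side.

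Of the wider Treg signature, 32 of 35 genes were analysed, with a median of 0.08. The 5 at least 2-fold higher were so in both 72 h libraries, as were the 2 lower, against 3% and 1.74% of all analysed genes. Prdm1 (Blimp-1), a transcription factor of effector Tregs, stood at 3.46, 14.03 and 19.6 FPKM (differences 1.75 and 2.21). The inhibitory receptor Lag3 was 16.9, 42.9 and 56.4 FPKM (1.30 and 1.68). Entpd1 (CD39), an ectoenzyme that removes extracellular ATP, was 19.0, 42.4 and 47.6 FPKM (1.12 and 1.28). In each of these genes the 72 h libraries were closer to each other than to 48 h. The lower members were Plagl1, a zinc finger factor, at 29.6, 8.92 and 10.4 FPKM (-1.63 and -1.42), and the chemokine receptor Ccr8 at 97.6, 33.9 and 27.9 FPKM (-1.497 and -1.77).

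The largest negative differences were led by immediate early genes. Fosb, a partner in the AP-1 transcription factor, stood at 35.2 FPKM at 48 h and at 0.166 and 0.0877 in the 72 h libraries, about 3314 fragments against 11 and 7. It was near the floor at 72 h in both, with differences of -4.96 and -5.06. Nr4a3, an orphan nuclear receptor induced by the T cell receptor, was 136, 10.05 and 3.75 FPKM (-3.63 and -4.85), and its relative Nr4a1 (Nur77) was 131, 16.0 and 8.54 FPKM (-2.96 and -3.79). For both genes Het 3 lay below Het 1 at 72 h. Tnfaip3 (A20), an inhibitor of NF-kB signalling, was 119, 20.5 and 23.9 FPKM (-2.48 and -2.27). Cd83, an activation marker, was 16.6, 2.36 and 1.11 FPKM (-2.39 and -3.06). The zinc finger factor Egr2 was 14.5, 2.75 and 1.71 FPKM (-2.05 and -2.51).

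In the T cell receptor early response list, 39 of 43 genes were analysed and 33 were lower at 72 h. At least 2-fold lower were 17, of which 13 were so in both 72 h libraries, against 2.31% and 1.74% of all analysed genes. Besides those above these include Egr1, Fos, the phosphatase Dusp1 and the NF-kB members Rel and Nfkb2. Fos stood at 76.7, 18.2 and 27.4 FPKM (-2.02 and -1.45) and Rel at 37.9, 13.2 and 10.7 (-1.45 and -1.74). Irf4, which scales with antigen receptor signal, was 79.6, 35.2 and 25.05 FPKM (-1.15 and -1.63). The list was not uniform, and 2 members were at least 2-fold higher in both 72 h libraries. Ier3, a stress-inducible gene, was 2.64, 18.5 and 7.24 FPKM (2.42 and 1.18), and Fosl2, another AP-1 member, was 13.9, 32.4 and 40.0 FPKM (1.16 and 1.46).

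The bases upstream of the early response genes are shown because the list holds genes known to be induced through cyclic AMP and calcium signals, whose factors bind TGACG (the half-site of the cyclic AMP response element). Promoters were the 250 bases before the start of a gene in RefSeq (build GRCm38.p6). Of the list, 28 genes had one, and 11 of these (39.3%) held TGACG on either strand. The share was 29.95% of the 7141 analysed genes with a promoter, 30.5% of those at least 2-fold lower (46 of 151) and 17.9% of all 27025 promoters. Below are 3 genes with the motif and the largest negative differences, 5′ to 3′ on the gene's strand, with TGACG or its reverse complement CGTCA in capitals. A match describes these letters and shows neither a bound site nor a cause.
Fosb chr7:19310046-19310295 (-): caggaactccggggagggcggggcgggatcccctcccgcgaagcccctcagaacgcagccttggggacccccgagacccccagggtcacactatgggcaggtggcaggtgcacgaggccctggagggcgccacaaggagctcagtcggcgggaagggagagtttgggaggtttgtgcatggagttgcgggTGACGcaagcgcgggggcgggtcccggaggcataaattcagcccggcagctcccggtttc
Nr4a3 chr4:48045055-48045304 (+): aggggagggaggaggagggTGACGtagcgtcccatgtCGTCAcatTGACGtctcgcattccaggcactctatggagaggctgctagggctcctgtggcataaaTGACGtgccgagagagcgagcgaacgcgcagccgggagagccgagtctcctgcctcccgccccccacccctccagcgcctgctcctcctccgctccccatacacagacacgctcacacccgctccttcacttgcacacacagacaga
Nr4a1 chr15:101266596-101266845 (+): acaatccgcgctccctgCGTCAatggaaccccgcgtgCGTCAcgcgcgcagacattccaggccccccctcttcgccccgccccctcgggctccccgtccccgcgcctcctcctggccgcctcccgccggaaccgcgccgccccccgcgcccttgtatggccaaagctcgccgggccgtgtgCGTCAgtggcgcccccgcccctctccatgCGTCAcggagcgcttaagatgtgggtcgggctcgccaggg
Fosb held the motif once, 60 bases before its start, and Nr4a3 and Nr4a1 held it 4 times each.

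The other genes of the 12 largest negative differences were of mixed function. Lad1, an anchoring filament protein, stood at 106 FPKM at 48 h and at 10.7 and 4.26 at 72 h (-3.20 and -4.34). Dtx1 (Deltex), a ubiquitin ligase linked to Notch and T cell anergy, was 18.2, 1.36 and 1.40 FPKM (-3.02 and -3.00), nearly equal in both 72 h libraries. Stra6, a receptor for the retinol carrier, was 21.1, 1.88 and 0.419 FPKM (-2.94 and -3.96). The transcription factor Klf4, which restrains proliferation, was 12.7, 1.27 and 1.15 FPKM (-2.59 and -2.67), and the kinase Sik1 was 32.4, 6.44 and 5.99 (-2.17 and -2.26). Ccr6, the receptor of the chemokine CCL20, was 43.6, 6.74 and 14.7 FPKM (-2.53 and -1.51). Eno1b, nearly identical in sequence to the enolase Eno1, was 10.4, 0.299 and 0.211 FPKM (-3.13 and -3.24), and the sources used here do not say how reads were split between such copies. All 12 were at least 2-fold lower in Het 3 as well.

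**Figure D2:**
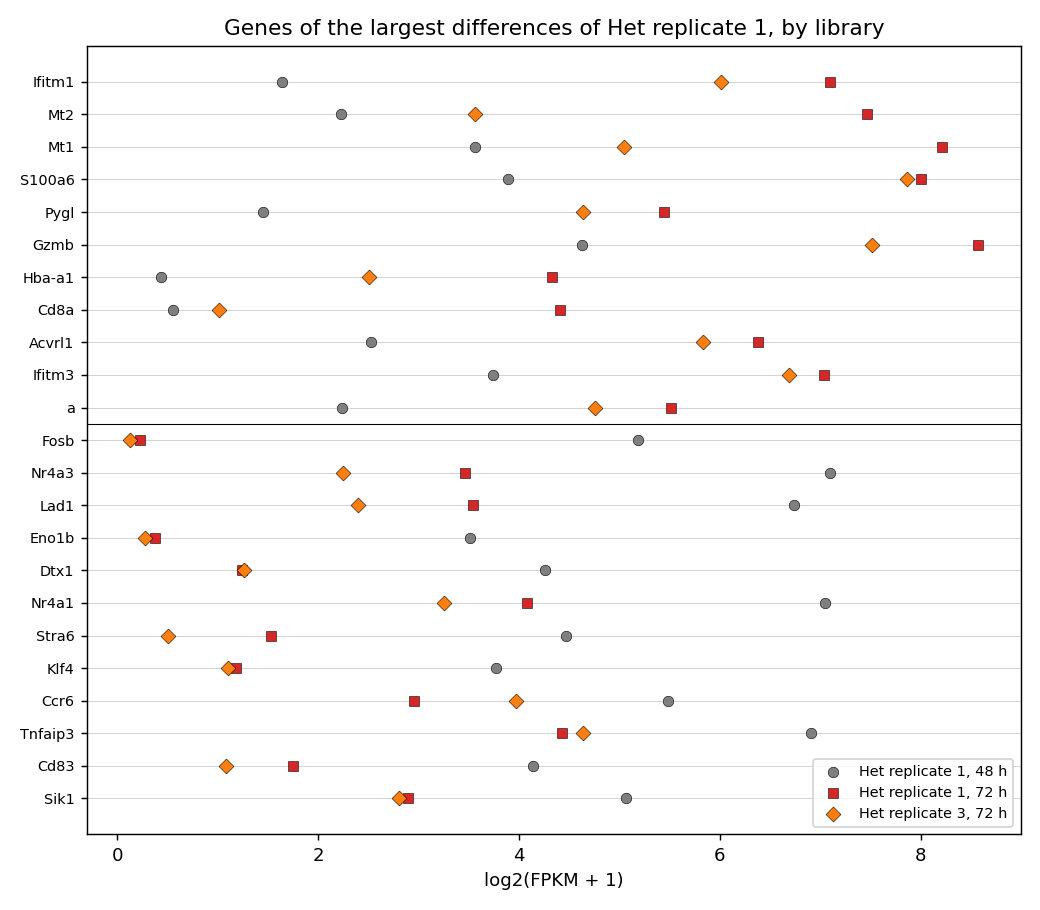
Level (log2(FPKM + 1)) of genes among the 12 largest positive and the 12 largest negative differences, in Het replicate 1 at 48 h (circles), Het replicate 1 at 72 h (squares) and Het replicate 3 at 72 h (diamonds). The replicate 3 level lies on the same side of the 48 h level for each gene drawn, close to the replicate 1 level for S100a6 and Dtx1 and far from it for Mt2, Mt1 and Cd8a.

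The largest positive difference was that of Ifitm1, an interferon-inducible membrane protein, at 2.11 FPKM at 48 h and 136 and 63.5 at 72 h (5.46 and 4.38). Its relative Ifitm3 was 12.4, 130 and 102 FPKM (3.29 and 2.95). The calcium-binding protein S100a6 was 13.9, 256 and 233 FPKM (4.11 and 3.97), and Acvrl1 (ALK1), a receptor of the TGF-beta family, was 4.77, 82.0 and 56.1 FPKM (3.85 and 3.30). For these 4 genes both 72 h libraries were high. The nonagouti gene, written a, was 3.70, 44.7 and 26.0 FPKM (3.28 and 2.52). Of the 12 largest, 11 were at least 2-fold higher in Het 3 too, all but Cd8a.

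The metallothioneins, which bind zinc and copper, were high in 1 of the 72 h libraries. Mt2 stood at 3.69 FPKM at 48 h, 175 in Het 1 at 72 h and 10.8 in Het 3 (5.23 and 1.33). Mt1 was 10.8, 296 and 31.9 FPKM (4.65 and 1.48). Both were above 48 h in Het 3 but nearer to it than to Het 1. The zinc importers Slc39a10 and Slc39a4 were lower, with 54.7, 16.7 and 27.5 FPKM (-1.65 and -0.97) and 25.9, 9.69 and 8.80 FPKM (-1.33 and -1.46).

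Some cytotoxic granule genes differed between the 72 h libraries, as did CD8 T cell markers. Over the 8 of 17 listed granule genes analysed, the medians were 0.72 in Het 1 and 0.11 in Het 3. Not all differed: Srgn was 172, 297 and 326 FPKM (0.78 and 0.92), and Ctsw 47.2, 53.5 and 57.7 (0.18 and 0.29). Gzmb (granzyme B), a serine protease that effector Tregs also make, was 23.7 FPKM at 48 h, 379 in Het 1 at 72 h and 182 in Het 3 (3.94 and 2.89). Gzma was 4.71, 14.04 and 1.92 FPKM (1.40 and -0.97) and Nkg7, a granule membrane protein, 18.1, 29.1 and 6.48 (0.66 and -1.35), so Het 3 lay below 48 h for both. Cd8a, which marks CD8 T cells, was 0.466, 20.3 and 1.01 FPKM (3.86 and 0.46), and Cd8b1 was 4.78, 11.5 and 4.69 (1.12 and -0.02). The 18 CD8 T and NK cell markers summed to 34.9 FPKM at 48 h, 88.1 in Het 1 at 72 h and 15.8 in Het 3, with 0, 1 and 8 of them at 0. Of the 72 h Het libraries, Het 1 had the higher Gzmb level and the higher marker sum, and Het 3 the lower of both. In Het 3 Gzmb was above its 48 h level while the marker sum was below it. The part of such cells in the Gzmb levels was not tested. Fewer cells of a type and less RNA per cell cannot be told apart in bulk RNA.

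Markers of other cells were uneven over the Het libraries. Hba-a1 (alpha globin), which has a near-identical copy, was 0.349, 19.05 and 4.68 FPKM (3.89 and 2.07), while the beta globin Hbb-bs stayed below 0.1 FPKM in all 3 Het libraries. The 15 erythroid and platelet markers summed to 39.4, 106 and 98.7 FPKM, with 4, 5 and 5 at 0. Much of that was Gata1, a transcription factor, at 32.4, 77.4 and 90.6 FPKM (1.23 and 1.46). The 26 neutrophil and myeloid markers summed to 50.1, 46.9 and 32.4 FPKM (7, 12 and 13 at 0), the 18 B cell markers to 220, 179 and 333 (0, 0 and 4 at 0) and the 14 dendritic cell markers to 76.9, 41.1 and 35.3 (3, 4 and 4 at 0). The neutrophil sum was mostly Ltf and the B cell sum mostly Ighm, while the B cell factor Pax5 stood at 1.41, 0.745 and 0.128 FPKM. Transcripts of the female Xist (76.3, 107 and 165 FPKM) and of the Y-linked Ddx3y (18.0, 12.04 and 15.8) were both present in each Het library. The part of these cells or of pooled animals in the differences was not tested.

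Hypoxia-response genes, which the HIF factors induce when oxygen is low, were higher in 30 of 30 analysed members (35 listed). The median was 0.99 in Het 1 and 0.53 in Het 3, where 25 were higher and 5 lower. At least 2-fold higher were 14 in Het 1, and 8 in both 72 h libraries, against 3.82% and 3% of all analysed genes. P4ha2, a collagen prolyl hydroxylase, stood at 3.26, 32.6 and 14.5 FPKM (2.98 and 1.87). Stc2, a secreted glycoprotein, was 6.97, 56.2 and 64.2 FPKM (2.84 and 3.03), and the stress gene Ndrg1 was 55.2, 279 and 208 FPKM (2.32 and 1.89). For Stc2 the level of Het 3 was the highest, and for the other members named here except P4ha1 that of Het 1 was.

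Anxa2 (annexin A2), a membrane-binding protein, was 109, 552 and 293 FPKM (2.33 and 1.42). Egln3, one of the prolyl hydroxylases that mark HIF for destruction, was 19.96, 96.6 and 62.2 FPKM (2.22 and 1.59). The growth factor gene Vegfa was 26.7, 71.0 and 52.98 FPKM (1.38 and 0.96), and P4ha1, a relative of P4ha2, 50.2, 121 and 134 (1.25 and 1.40). Selenbp1, a selenium-binding protein, recurred least of those 2-fold higher, with 10.5, 44.1 and 13.7 FPKM (1.97 and 0.35).

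HIF binds the core letters ACGTG, so the promoters of 3 members with these letters and the largest differences are shown. The letters stood on either strand in 12 of 25 hypoxia-response promoters (48%) and in 12 of 28 of glycolysis genes (42.9%). They also stood in 23.2% of the promoters of analysed genes, in 14.9% of those at least 2-fold higher (37 of 248) and in 16.6% of all promoters of the table. A longer motif, the E-box CACGTG, contains ACGTG. Capitals mark ACGTG or its reverse complement CACGT, with sequences from RefSeq (GRCm38.p6), 5′ to 3′ on the gene's strand, ending at the base before the start.
P4ha2 chr11:54100674-54100923 (+): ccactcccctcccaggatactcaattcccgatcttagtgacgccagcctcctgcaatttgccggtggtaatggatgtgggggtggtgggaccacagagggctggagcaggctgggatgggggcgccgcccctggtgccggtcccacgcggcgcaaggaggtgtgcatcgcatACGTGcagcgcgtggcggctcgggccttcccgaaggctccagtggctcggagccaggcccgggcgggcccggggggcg
Anxa2 chr9:69453433-69453682 (+): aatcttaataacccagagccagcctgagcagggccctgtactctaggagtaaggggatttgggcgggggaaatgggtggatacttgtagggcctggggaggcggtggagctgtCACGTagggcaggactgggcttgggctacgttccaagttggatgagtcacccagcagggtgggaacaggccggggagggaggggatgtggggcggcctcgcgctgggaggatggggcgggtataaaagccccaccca
Egln3 chr12:54203875-54204124 (-): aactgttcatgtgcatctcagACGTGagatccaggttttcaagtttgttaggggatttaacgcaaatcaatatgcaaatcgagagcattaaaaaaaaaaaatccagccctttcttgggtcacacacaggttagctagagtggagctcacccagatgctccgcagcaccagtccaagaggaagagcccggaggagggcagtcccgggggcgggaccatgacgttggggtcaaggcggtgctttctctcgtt
The match lay 78 bases before the start in P4ha2, 137 in Anxa2 and 229 in Egln3, and binding was not measured.

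Genes of glycolysis and glucose uptake depended on which 72 h library was used. In Het 1 the median over 29 genes was 0.53, with 23 higher and 6 lower, and in Het 3 it was -0.01, with 14 higher and 15 lower. Some members were high in both. Pygl, the glycogen phosphorylase of liver and white cells, was 1.73, 42.5 and 23.9 FPKM (3.995 and 3.19). The aldolase Aldoc was 15.6, 102 and 65.9 FPKM (2.63 and 2.01), and the glucose transporter Slc2a3 (GLUT3) 41.6, 239 and 144 (2.49 and 1.77). The muscle enolase Eno3 went the other way with 467, 139 and 71.4 FPKM (-1.74 and -2.69), while the neuronal enolase Eno2 was 10.2, 26.1 and 51.1 (1.27 and 2.21).

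**Figure D3:**
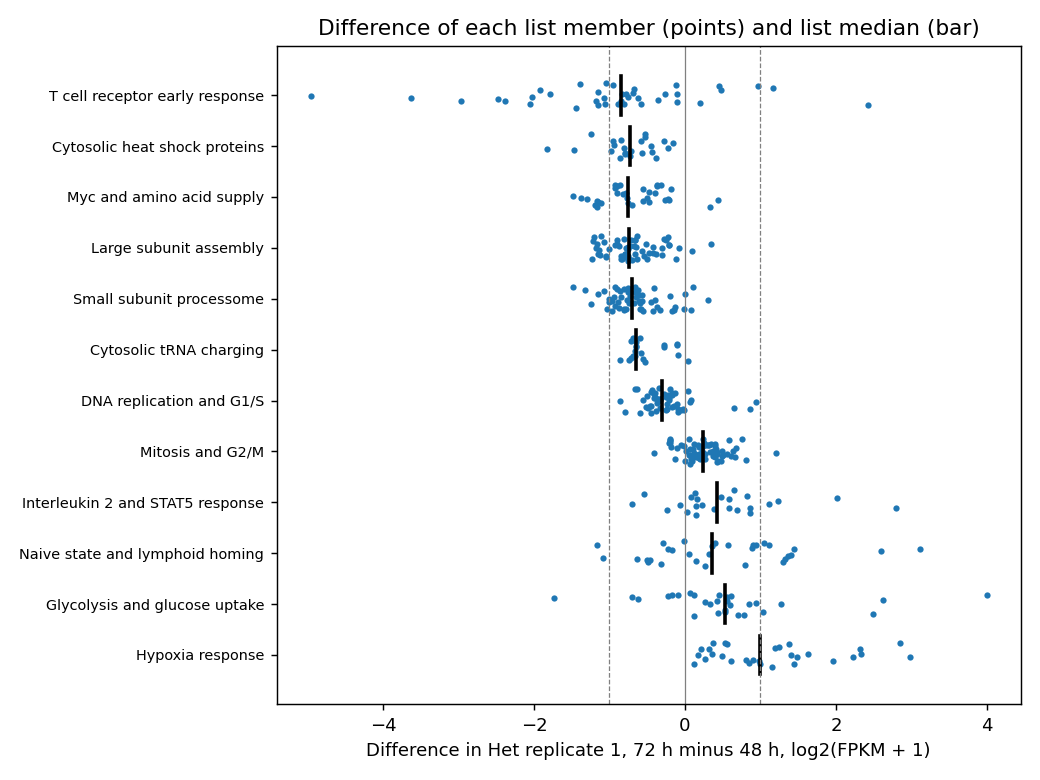
Difference of each analysed member (points) of 12 gene lists in Het replicate 1, 72 h minus 48 h, in log2(FPKM + 1), with the list's median as a bar and dashed lines at a 2-fold difference. All hypoxia-response members lie above 0 and all heat shock members below 0, while the early response list spreads from -4.96 to 2.42.

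Ribosome assembly genes were lower at 72 h in both Het libraries by nearly the same amount. The small subunit processome, the complex that cuts and folds the precursor of the small subunit RNA, had a median of -0.70 in Het 1 and -0.65 in Het 3 over 56 of 58 listed genes, Noc4l included. In each of the 72 h libraries 53 were lower and 3 higher. At least 2-fold lower were 8 in Het 1, and 5 in both, against 2.31% and 1.74% of all analysed genes. Pno1, needed for cleavage of the small subunit RNA, was 24.4, 8.07 and 9.28 FPKM (-1.49 and -1.31). Utp20 was 10.7, 3.67 and 4.03 FPKM (-1.33 and -1.22) and Rrp12, an export factor, 13.8, 5.21 and 5.16 (-1.25 and -1.26).

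Large subunit assembly genes had medians of -0.74 and -0.75, with 57 of 59 lower in Het 1 and 56 in Het 3. At least 2-fold lower were 13 in Het 1, and 10 in both, against 2.31% and 1.74% of all analysed genes. Npm1 (nucleophosmin), an abundant nucleolar chaperone, stood at 1296, 580 and 419 FPKM (-1.16 and -1.63). Mybbp1a was 207, 89.2 and 90.7 FPKM (-1.21 and -1.18), and Mdn1, the giant ATPase that remodels the large subunit precursor, was 48.7, 20.4 and 30.3 (-1.22 and -0.67). The RNA polymerase I and III machinery, which makes ribosomal and transfer RNA, had medians of -0.23 and -0.29, with 30 of 36 lower in Het 1. Its lowest member was Polr1b, a core subunit of polymerase I, at 39.7, 16.6 and 19.8 FPKM (-1.21 and -0.97). The E-box CACGTG, which Myc binds, stood in 7 of 45 small subunit promoters (15.6%) and in 2 of 48 large subunit promoters (4.17%), against 8.81% of the promoters of analysed genes.

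Ribosomal proteins themselves stood nearer to 0 than the assembly factors in Het 1. The 77 cytosolic ribosomal protein genes, which have many near-identical pseudogenes and are uncertain to that extent, had a median of -0.09 there, with 30 higher and 47 lower, and of -0.79 in Het 3, with 77 of 77 lower. Rps29 stood at 2151 FPKM at 48 h, 3080 in Het 1 at 72 h and 420 in Het 3 (0.52 and -2.35). Rpl38 was 1233, 1918 and 422 FPKM (0.64 and -1.54), while Rps2 was 3656, 2025 and 1449 (-0.85 and -1.34). Nuclear genes of oxidative phosphorylation had the same gap, with medians of -0.09 and -0.73 over 73 genes.

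These lists hold short genes, and the gap between the 72 h libraries moved with length. When the genes were cut by mean annotated transcript length into 5 equal groups, the shortest (up to 1025.5 bases) had a median of -0.19 for Het 3 minus Het 1 at 72 h. In the next groups it was -0.02, 0.07, 0.11 and, for the longest, 0.17. The 48 h to 72 h difference of Het 1, whose libraries lie in the same table, had medians from -0.06 to -0.02 over the groups. The part of length in the Het 3 values of these lists was not tested.

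**Figure D4:**
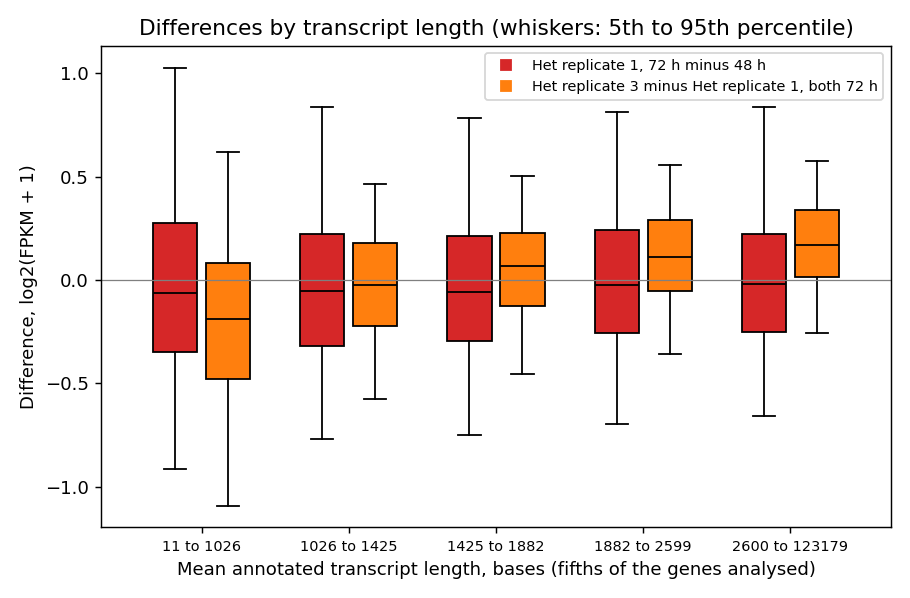
Differences in log2(FPKM + 1) in 5 equal groups of genes by mean annotated transcript length in bases, for Het replicate 1 at 72 h minus 48 h (red) and for Het replicate 3 minus Het replicate 1 at 72 h (orange), with boxes for the quartiles, a line at the median and whiskers from the 5th to the 95th percentile. The orange medians go from -0.19 for the shortest to 0.17 for the longest group, and the red ones stay between -0.06 and -0.02.

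Mitochondrially encoded genes, the subunits of the respiratory chain made inside the organelle, were lower in 10 of 10 analysed members in Het 1, with medians of -0.93 and -1.16. The cytochrome b gene mt-Cytb was 2363, 977 and 1056 FPKM (-1.27 and -1.16), and mt-Nd1, a subunit of complex I, 1722, 790 and 697 (-1.12 and -1.30). The exception in Het 3 was mt-Atp8, with 16.7, 6.56 and 18.7 FPKM (-1.23 and 0.16), which shares bases with mt-Atp6. There mt-Atp6 went the other way, with 9.29, 4.49 and 0.543 FPKM (-0.91 and -2.74), the last from about 9 fragments. The part of the shared bases in these values was not tested. Mitochondrial ribosomal proteins, encoded in the nucleus, had medians of -0.38 and -0.76, with 67 of 73 lower in Het 1.

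Genes that feed growth were lower in both libraries. The list of Myc and amino acid supply had medians of -0.75 and -1.01, with 31 of 33 lower in each. Its 8 members at least 2-fold lower were so in both, against 1.74% of all analysed genes. Srm (spermidine synthase) was 159, 56.2 and 48.0 FPKM (-1.48 and -1.71), and Odc1, the first enzyme of polyamine synthesis, 271, 118 and 69.3 (-1.20 and -1.95). The serine and folate enzymes Shmt1 and Mthfd1 were 73.8, 27.9 and 27.8 FPKM (-1.37 and -1.38) and 46.9, 18.5 and 16.5 (-1.30 and -1.45). Phgdh, which starts serine synthesis, was 496, 224 and 153 FPKM (-1.15 and -1.69).

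Nucleotide synthesis genes had medians of -0.55 and -0.87, with 22 of 26 lower in Het 1. Cad, which starts pyrimidine synthesis, was 157, 69.9 and 68.9 FPKM (-1.16 and -1.18), and Gart, of purine synthesis, 66.7, 31.6 and 30 (-1.05 and -1.13). The enzymes that charge transfer RNA with amino acids had medians of -0.64 and -0.76, with 20 of 21 lower in each and none at least 2-fold lower in Het 1. The proteasome subunits had medians of -0.43 and -0.73, with 34 of 37 lower in Het 1.

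Heat shock proteins, the chaperones that fold new proteins, were lower in 23 of 23 analysed members in both libraries (27 listed), with medians of -0.73 and -0.94. Hsph1 (Hsp110) was 123, 34.1 and 32.3 FPKM (-1.82 and -1.90). The list, labelled cytosolic in the figures, also holds the mitochondrial chaperonins Hspd1 and Hspe1. These were 387, 139 and 110 FPKM (-1.47 and -1.80) and 314, 132 and 73.3 (-1.24 and -2.08). Hsp90ab1, the third most abundant transcript at 48 h, was 4854, 2533 and 1909 FPKM (-0.94 and -1.35). Chaperones of the endoplasmic reticulum had medians of -0.15 and -0.26.

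Integrated stress response genes, which ATF4 drives, were mixed. Of 21 analysed, 4 were at least 2-fold higher and 3 lower in Het 1, and 2 and 3 in both. Over all analysed genes, 3.82% were at least 2-fold higher and 2.31% lower in Het 1. The 2 higher in both were Trib3 and Stc2, and Stc2 is also one of the hypoxia-response genes above. Trib3, a pseudokinase, was 15.0, 44.5 and 32.5 FPKM (1.51 and 1.07). Asns (asparagine synthetase) was 20.8, 10.7 and 2.21 FPKM (-0.90 and -2.76), and Ppp1r15a (GADD34), a phosphatase subunit, 40.1, 12.6 and 13.9 (-1.60 and -1.47). Targets of p53 had a median of 0.04, with 17 higher and 16 lower, and 1 of 33, the kinase gene Plk3, at least 2-fold lower.

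Interleukin 2 and STAT5 response genes had medians of 0.43 and 0.71 over 24 genes, with 20 higher in Het 1 and 19 in Het 3. The 4 at least 2-fold higher were so in both, against 3% of all analysed genes. Gadd45g, a stress and growth arrest gene, was 13.3, 98.4 and 113 FPKM (2.80 and 2.99). Socs3, a feedback inhibitor of cytokine receptors, was 83.0, 337 and 736 FPKM (2.01 and 3.13). The cytokine Osm (oncostatin M) was 33.2, 79.3 and 110 (1.23 and 1.70), and the survival gene Bcl2 63.7, 138 and 143 (1.11 and 1.16). The lowest of the list was Stat5a at 85.5, 52.4 and 51.5 FPKM (-0.70 and -0.72).

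Against Bcl2 stood 2 other survival genes. Bcl2l1 (Bcl-xL) was 117, 35.5 and 26.4 FPKM (-1.69 and -2.10), and Bcl2a1d, one of several near-identical copies, 11.2, 1.83 and 1.001 (-2.11 and -2.61). The other 26 of the 29 cell death regulators analysed were within 2-fold in Het 1.

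Genes of the naive state and of lymphoid homing had medians of 0.36 and 0.75 over 31 genes, with 20 higher and 11 lower in Het 1 and 19 and 12 in Het 3. The 9 at least 2-fold higher in Het 1 were so in both 72 h libraries, against 3% of all analysed genes. At least 2-fold lower in Het 1 were 2, against 2.31%. Igfbp4, which binds insulin-like growth factors, was 84.9, 521 and 606 FPKM (2.60 and 2.82). S1pr1, the receptor that lets T cells leave lymph nodes, was 46.6, 129 and 154 FPKM (1.45 and 1.70). The factors Id3 and Klf3 were 43.7, 117 and 93.3 FPKM (1.40 and 1.08) and 25.3, 65.1 and 78.2 (1.33 and 1.59). Ly6c1, which shares reads with a near-identical copy, was 1.18, 17.8 and 8.56 FPKM (3.11 and 2.13). Actn1, an actin crosslinker, was lower in both at 46.1, 20.1 and 17.1 FPKM (-1.16 and -1.38).

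Chemokine receptors and integrins moved in both directions, with 5 of 17 at least 2-fold higher and 2 lower, all 7 of them in both 72 h libraries. The shares of all analysed genes that did so in both were 3% higher and 1.74% lower. The higher ones include the integrin chains Itgb3, Itgb7 and Itgae and the gut-homing receptor Gpr15. Itgb7, which pairs into the gut integrin with alpha 4, was 234, 623 and 756 FPKM (1.41 and 1.69), and Itgb3 5.21, 32.5 and 32.3 (2.43 and 2.42). The lower ones were Ccr6 and Ccr8, given above.

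Among effector cytokines and factors, 15 of 38 listed genes were analysed, and 5 were at least 2-fold higher, all in both 72 h libraries. The share of all analysed genes higher in both was 3%. Receptors for alarmins stood out by size. Il1rl1 (ST2), the receptor of interleukin 33, was 1.53, 12.4 and 32.7 FPKM (2.41 and 3.73). The interleukin 18 receptor chains Il18r1 and Il18rap were 15.2, 72.1 and 136 FPKM (2.17 and 3.07) and 2.74, 16.2 and 24.8 (2.198 and 2.79). Het 3 was the highest for all 3. The transcription factor Maf was 9.92, 23.6 and 59.2 FPKM (1.17 and 2.46). Of the costimulatory and inhibitory receptors, 3 of 23 were at least 2-fold higher in both libraries, among them Vsir (VISTA) at 53.2, 134 and 180 FPKM (1.32 and 1.74) and Cd86 at 5.04, 15.5 and 14.5 (1.45 and 1.36).

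Cell cycle genes differed by phase in Het 1. Genes of DNA replication and the G1/S transition were lower in 46 of 52, with a median of -0.30, and none reached 2-fold in Het 1. The other 6 were higher, among them the members with the largest differences of the list. These were Cdk6 at 67.9, 131 and 158 FPKM (0.94 and 1.21) and E2f2 at 77.8, 142 and 164 (0.86 and 1.07). Of the mitotic genes, 57 of 68 were higher (median 0.24). In Het 3 the medians were -0.62 and 0.01, and the mitotic genes split into 35 higher and 33 lower. The phosphatase Cdc25b, which starts mitosis, was at least 2-fold higher in both, with 130, 301 and 318 FPKM (1.20 and 1.28). Orc1, of the origin recognition complex, was 24.7, 13.2 and 13.01 FPKM (-0.86 and -0.88). Cdkn2d (p19), an inhibitor of CDK4 and CDK6, was 46.2, 126 and 129 (1.43 and 1.46).

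Interferon-stimulated genes had a median of 0.08 in Het 1 and 0.55 in Het 3 over 38 genes. Isg20, an RNA-degrading enzyme, was 12.1, 39.4 and 33.3 FPKM (1.62 and 1.39) and the GTPase Gbp4 15.0, 33.7 and 73.6 (1.12 and 2.23). Iigp1, another GTPase, was 11.7, 3.34 and 12.8 FPKM (-1.54 and 0.13), low in 1 library. Of 11 MHC class II genes 5 were analysed. H2-Ab1 was 21.9, 115 and 49.9 FPKM (2.35 and 1.16) and Cd74, the invariant chain, 22.9, 7.80 and 3.32 (-1.44 and -2.47), so members of this pathway differed in direction.

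**Figure D5:**
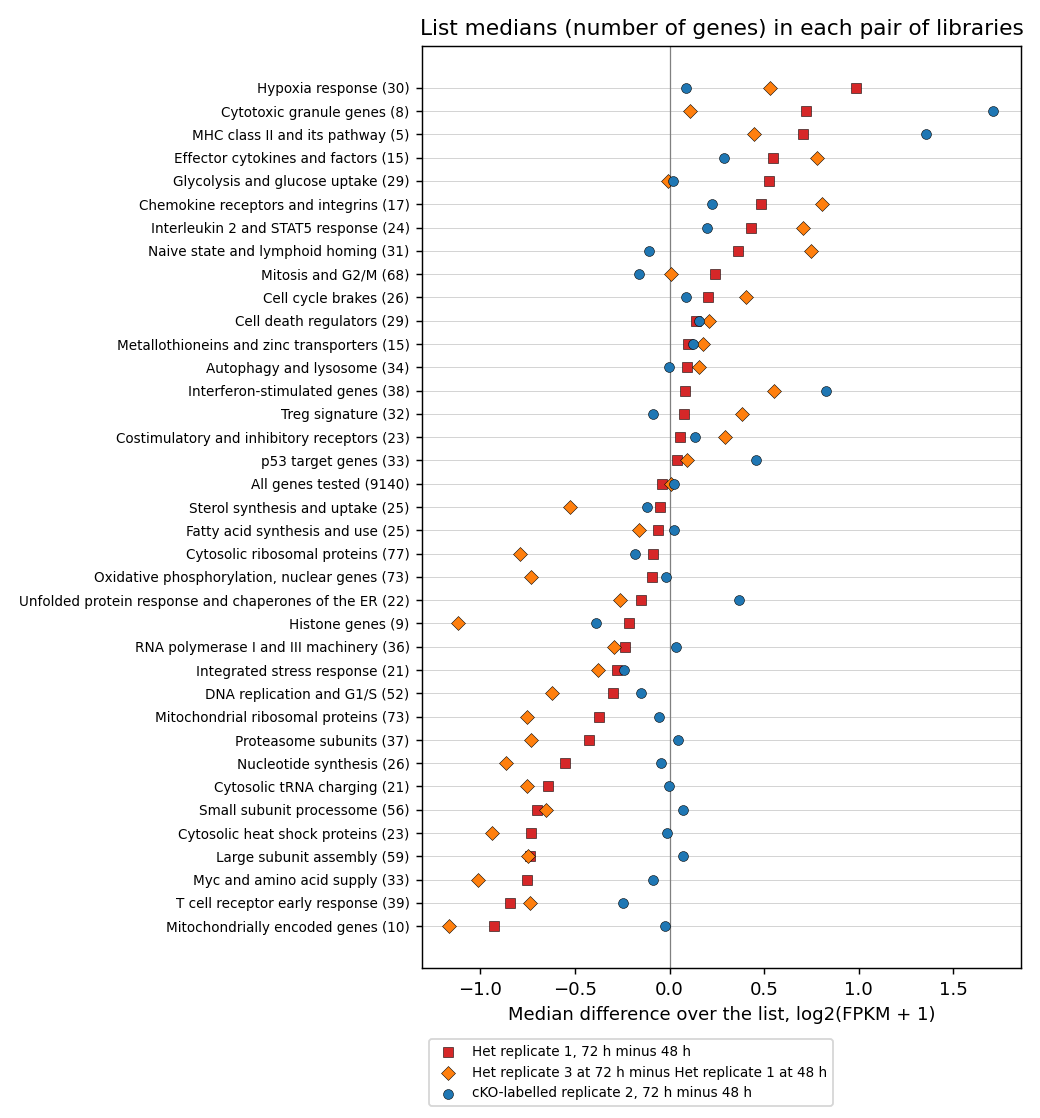
Median difference in log2(FPKM + 1) of each gene list (number of genes analysed in brackets) for Het replicate 1 at 72 h minus 48 h (squares), Het replicate 3 at 72 h minus Het replicate 1 at 48 h (diamonds) and the library pair of replicate 2 labelled cKO (circles). Ribosome assembly lists lie near -0.7 in both Het comparisons and near 0.07 in the pair of replicate 2 labelled cKO (cKO replicate 4, not drawn, had -0.72 and -0.84), and the diamonds lie well left of the squares for cytosolic ribosomal proteins.

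The same 9140 genes were set side by side in the pair of libraries of replicate 2 labelled cKO, with the caveat on Noc4l above. In that pair, 141 genes (1.54%) stood 2-fold or more above their 48 h level and 43 (0.470%) as far below it. Of the 349 genes higher in Het 1, 66 were so in that pair too and 2 were 2-fold or more lower. Of the 211 lower, 19 were so in that pair and 8 were 2-fold or more higher. The median of the 349 was 1.40 in Het 1 and 0.31 in the cKO-labelled pair, and that of the 211 was -1.21 and -0.11. The genes were chosen on Het 1, so its medians are larger by construction, and the difference between the pairs was not tested.

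By list, the cKO-labelled 72 h libraries, replicates 2 and 4 (cKO 2 and cKO 4), stood apart from each other in several lists. Against the same 48 h library, small and large subunit assembly genes had medians of 0.07 and 0.07 in cKO 2 and of -0.72 and -0.84 in cKO 4, which lies in the other table, beside -0.70 and -0.74 in Het 1. Heat shock proteins had -0.01 in cKO 2 and -0.75 in cKO 4, beside -0.73 in Het 1, and Myc and amino acid supply -0.09 and -0.95, beside -0.75. For these lists cKO 4 was as low as Het 1 and cKO 2 was not. Hypoxia-response genes had 0.09 in cKO 2 and -0.0046 in cKO 4, beside 0.99 in Het 1 and 0.53 in Het 3. Interferon-stimulated genes had 0.83 in cKO 2 and 1.20 in cKO 4, beside 0.08 in Het 1 and 0.55 in Het 3. The p53 targets had 0.46 and 0.45, beside 0.04 and 0.09.

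Nr4a3 stood at 143 FPKM at 48 h, 104 in cKO 2 at 72 h (-0.46) and 22.8 in cKO 4, above both Het libraries at 72 h. Npm1 was 1308, 1348 and 469 FPKM, so cKO 4 lay between the Het levels at 72 h. Stc2 was 6.21, 5.10 and 8.76 FPKM, below both Het levels at 72 h. Gzmb stood at 22.1 FPKM at 48 h, 811 in cKO 2 (5.14) and 227 in cKO 4. Cd8a was 0.992, 39.0 and 2.24 FPKM, and the CD8 T and NK cell marker sum 47.0, 333 and 123. Each was more than 2-fold higher in the pair of replicate 2. In cKO 4 Gzmb and the marker sum were more than 2-fold above 48 h too, while Cd8a lay near its 48 h level.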

How the data were processed

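RNA of sorted Tregs was sequenced in 6 libraries, and 3 of them (Het) were described here. The authors deposited FPKM in 2 tables, of which one holds replicates 1 and 2 and the other 3 and 4. The submitters' processing notes list the build mm9 and the tools TopHat2 2.0.12, Bowtie2 2.2.3 and HTSeq 0.6.1. The sources used here give no roles, annotation or strandedness. Reads of a gene and of one overlapping or antisense to it are thus not separable.

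Of 47069 rows with an Ensembl ID in both tables, 46488 matched a symbol. Rows with only a running number (358 and 278) were left out. Values were not rescaled. Depth was estimated from the steps of low genes, using mean annotated transcript lengths, since FPKM hold no counts. It came to 28.76 M fragments in Het 1 at 48 h, 20.92 M in Het 1 at 72 h, 24.3 M in Het 3 and 16.44 to 23.86 M in the libraries labelled cKO. In these fits 86.5% to 87.3% of values under 8 fragments lay within 0.02 of a whole number. Fragment numbers gave the 95% counting intervals alone.

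Members were genes whose mean over the 2 libraries of Het 1 reached 5 FPKM, compared as log2(FPKM + 1), and list counts use the members past this limit. The members and the 43 gene lists were chosen with earlier results of these data known. By rule, the text names Noc4l, 5 Treg genes, the 12 largest differences each way (without predicted genes, clones, pseudogenes and receptor segments) and up to 6 members of each list with the largest differences. Actn1, Actb, Asns, Dusp1, Eef1a1, Egr1, Egr2, Entpd1, Fos, Fosl2, Hbb-bs, Irf4, Nfkb2, P4ha1, Pax5, Rel, Stat5a, Tmsb4x and Vegfa were named after their values were seen. Some genes chosen by this rule are not reported here.

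RefSeq promoters (GRCm38.p6) matched 7141 genes by symbol. Gene coordinates of mm9 were not used here. Alternatives were 2 pseudocounts, 2 filters, 3 rescalings and Het 3 as the 72 h library, and, added later, a length limit and a length correction. Tables used Python 3.11.15, pandas 2.3.3, numpy 2.4.6, scipy 1.17.1 and matplotlib 3.10.9.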

Additional observations from a re-analysis of the deposited data

Results flagged for a closer look

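In Trib3 and Zmat3 both 72 h libraries of one genotype label lay on one side of that label's 48 h library. Both of the other label lay on the opposite side, each of these differences being larger than 0.5 in size. How many of the analysed genes do so is not reported here, so no share can be given. Trib3, a pseudokinase of the integrated stress response, had differences of 1.51 in Het 1 and 1.07 in Het 3, against -1.17 in cKO 2 and -1.88 in cKO 4. Zmat3, an RNA-binding p53 target, had -0.99 in Het 1 and -0.70 in Het 3, against 0.93 in cKO 2 and 0.62 in cKO 4. Each label has a single 48 h library that both of its differences share, so the difference between the labels was not tested.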

How the results depend on the processing

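No paired analysis was possible because the times share 1 replicate number and no test was run. For the same reason no library could be left out, and Het 3 was put in place of Het 1 at 72 h instead. That gave 538 genes at least 2-fold higher and 448 lower, in place of 349 and 211. It put the median of the glycolysis list at -0.0098, and 19 of the 241 genes chosen by rule on the other side of 0, Foxp3 and Ikzf2 among them. Of the 120 at least 2-fold different in Het 1, these were 4: Gzma (-0.97), mt-Atp8 (0.16), Iigp1 (0.13) and Cd8b1 (-0.024). A pseudocount of 5 FPKM gave 115 lower genes. A mean of at least 1 FPKM gave 577 higher and 325 lower. With transcripts of at least 1500 bases alone, chosen after seeing the data and with fewer genes to count, 168 were higher and 92 lower. The other alternatives left both counts within 1.5 times. Of 13 lists with a median past 0.5 in either direction, glycolysis with Het 3 was the one change of sign among the alternatives run. With 1 library at 48 h, a difference between times cannot be told apart from a difference between libraries.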

Other observations

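Predicted genes, clones, pseudogenes and receptor segments aside, the most abundant transcripts of Het 1 at 48 h were Eef1a1 and Actb (beta actin). Eef1a1 carries transfer RNA to the ribosome. Eef1a1 stood at 9251 FPKM at 48 h, 8885 in Het 1 at 72 h and 7655 in Het 3, and Actb at 8734, 10173 and 9425, so both were within 2-fold across the libraries. Tmsb4x (thymosin beta 4), which binds actin monomers, was 1646 FPKM at 48 h, 4097 in Het 1 at 72 h and 3183 in Het 3, higher in both 72 h libraries. Autophagy and lysosome genes had a median of 0.09 over 34 genes in Het 1.

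Lipid genes stood near 0 in Het 1, with medians of -0.05 for sterol synthesis and uptake (25 genes) and -0.06 for fatty acid synthesis and use (25 genes). In Het 3 the sterol list had a median of -0.53. The sterol enzyme Cyp51 was 142, 89.4 and 54.7 FPKM (differences -0.66 and -1.36), lowest in Het 3. Acsl6, which activates long-chain fatty acids, was 3.66, 12.9 and 8.71 FPKM (1.58 and 1.06), higher in both 72 h libraries. Histone genes had medians of -0.22 in Het 1 and -1.12 in Het 3 over 9 of 50 genes.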
